A study of Mus musculus with 18 samples.

Results

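Interferon-induced genes, the genes that cells switch on when interferon reaches its receptors, were followed through skeletal muscle of mice on 2 diets, with or without a compound labelled AQ, and of mice with a Nurr1 transgene. The set was a list of 49 gene symbols, matched by name to the rows of the deposited table. Of these, 47 had a row among its 12558 genes, and all 47 passed the filter on low values (at least 1 CPM in at least 3 libraries). Oas1a, an enzyme that makes the signal for RNA decay, and Zbp1, a sensor of unusual nucleic acids, had no row and were not analysed here.

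The series concerns NURR1, an orphan nuclear receptor encoded by Nr4a2, in muscle and energy balance. Total RNA of skeletal muscle gave 18 libraries in 6 groups of 3, each library labelled as a biological replicate. Of the 4 wild-type groups, one received normal chow, one normal chow with AQ in the drinking water, one a high-fat diet (HFD), and one HFD with AQ. The remaining groups, both on HFD without AQ, were Nurr1 transgenic mice, named Nurr1-mTg, and wild-type controls of their own. All 6 groups spent 10 weeks on their diet. The sources used here do not give the promoter behind the transgene, the muscle sampled, sex, age or any pooling of animals, and the labels do not spell out AQ. P-values therefore measure the spread between these libraries.

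Interferons of type I signal through the receptor chains IFNAR1 and IFNAR2 to a complex of STAT proteins and IRF9, which binds a DNA element called ISRE (interferon-stimulated response element). Interferon gamma acts through IFNGR1 and IFNGR2, and the STAT dimer it activates binds a shorter element called GAS (gamma-activated site). The genes switched on in this way sense viral RNA, block viral replication, tag proteins with the ubiquitin-like ISG15, attack vacuoles of intracellular microbes with large GTPases, and load peptides onto class I molecules for display to T cells. Resting muscle fibres hold low amounts of class I molecules, and these are known to increase in inflamed muscle.

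The promoters are shown first, as a description. The genes were listed by name as interferon-induced, so a high share of ISRE letters is no independent support for the list. RefSeq promoters (GRCm38.p6, from 250 bases before to 50 after the start) were at hand for 37 of the 47 genes. The letters GAAANNGAAA, the core of an ISRE, were searched on both strands, and 18 of 37 promoters held them (48.6%, exact 95% binomial interval 31.9% to 65.6%). That interval takes the genes as independent, though some, such as the Gbp genes, are similar to each other. Igtp and Irgm2 may also share the same promoter bases, as given below. Of the 9438 genes tested that have a promoter in the same table, 3.55% held these letters, and of all 27025 genes in it 3.99%. Within the 150 bases before the start the shares were 35.1% (13 of 37) and 1.55%. The letters TTCNNNGAA, the core of a GAS, were in 9 of 37 promoters (24.3%) and in 8.25% of the genes tested. A match describes the letters and is not evidence of binding, and no match says only that these letters are not in this window. ISRE and GAS letters overlapped in Bst2 and lay close together in Igtp and Irgm2. In the annotation Igtp and Irgm2 start near each other on the same strand (chr11:58199556 and chr11:58199618). Their windows can overlap, and their matches, spaced alike, may be the same bases counted for both genes.

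By role, the ISRE letters were in 6 of 6 promoters of the GBP and IRG GTPases, where Igtp and Irgm2 may share a match. They were in 3 of 3 of the RNA sensors and in 5 of 14 of the antiviral effectors. They were in 2 of 5 of the ISG15 and ligase genes, in 1 of 4 of the regulators and in 1 of 5 of the class I genes, where the match was in B2m. The next lines give the 160 bases before the start of 6 of these genes, 5′ to 3′ on the strand of the gene, with every ISRE or GAS match in capitals. Isg15 (chr4:156200819-156200978, minus strand) stands for the ISG15 system, Ifit3 (chr19:34583369-34583528, plus) for the effectors, and Gbp3 (chr3:142559884-142560043, plus) and Gbp7 (chr3:142530176-142530335, plus) for the GTPases. B2m (chr2:122147527-122147686, plus) and Tapbp (chr17:33919318-33919477, plus) are the class I pair, and Tapbp is the one gene of the set that passed the test in a comparison.
Isg15: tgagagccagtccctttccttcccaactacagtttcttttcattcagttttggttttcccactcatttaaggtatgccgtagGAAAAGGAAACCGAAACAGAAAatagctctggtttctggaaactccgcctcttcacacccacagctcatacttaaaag
Ifit3: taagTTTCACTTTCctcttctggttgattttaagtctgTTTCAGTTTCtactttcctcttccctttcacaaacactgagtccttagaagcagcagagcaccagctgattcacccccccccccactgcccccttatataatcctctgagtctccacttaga
Gbp3: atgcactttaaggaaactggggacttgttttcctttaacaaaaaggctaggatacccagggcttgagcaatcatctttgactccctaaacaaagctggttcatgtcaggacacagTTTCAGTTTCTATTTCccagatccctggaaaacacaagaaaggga
Gbp7: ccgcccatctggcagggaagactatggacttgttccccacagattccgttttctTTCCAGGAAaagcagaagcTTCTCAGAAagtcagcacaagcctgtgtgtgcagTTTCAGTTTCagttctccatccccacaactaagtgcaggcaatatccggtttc
B2m: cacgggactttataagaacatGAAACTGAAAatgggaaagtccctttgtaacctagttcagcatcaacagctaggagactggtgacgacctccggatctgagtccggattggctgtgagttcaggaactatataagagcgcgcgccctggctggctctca
Tapbp: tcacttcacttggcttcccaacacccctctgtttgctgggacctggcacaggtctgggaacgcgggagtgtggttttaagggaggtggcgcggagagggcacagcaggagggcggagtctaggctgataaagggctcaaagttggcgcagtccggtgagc
In Isg15, 3 ISRE matches ran into each other between 78 and 57 bases before the start. Ifit3 held 2 separate matches, at 156 to 147 and 122 to 113 bases before the start, both on the opposite strand (letters TTTC). Gbp3 held 2 overlapping matches within 45 to 30 bases before the start, and RefSeq gives it a further start whose 160 bases held none. Gbp7 held 1 ISRE match, 53 to 44 bases before the start, and 2 GAS matches farther upstream. B2m held 1 ISRE match at 139 to 130 bases. In Tapbp neither set of letters occurred.

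Each library gave between 10404895 and 16082994 reads, recovered from the deposited values, and the 10 most abundant genes took 19.8% to 26.4% of them. A gene at 3 reads lay at 0.191 to 0.277 CPM, a floor that covers counting error only. Nr4a2 lay at 18.8, 30.1 and 19.8 CPM in the transgenic libraries and at no more than 4.79 CPM in the other 15 (limma log2 fold change against controls 3.02, adjusted p = 7.91e-06). Transcripts of muscle fibres were abundant in all libraries, the 11 fibre markers adding up to between 149900 and 209100 CPM. Values are CPM as deposited, read counts that the authors scaled by a factor per library, so that the columns sum to between 929993 and 1071538. Fold changes are log2 differences of log2(CPM + 1) with their standard error (SE), and a gene is said to pass where limma's adjusted p over 12524 genes tested is under 0.05.

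Per kilobase of the longest annotated transcript, the set spanned from 0.264 CPM for Ddx60 to 135 CPM for B2m, as means over the 18 libraries. The class I chain genes B2m, H2-K1 and H2-D1 and the loading factor Tapbp were among the most abundant, with H2-K1 at 38.9, H2-D1 at 17.0 and Tapbp at 13.5 CPM per kilobase. Only Ifi27, a small hydrophobic membrane protein, reached that range from another role, at 26.6. The RNA sensors lay between 0.264 and 2.05 CPM per kilobase. On the CPM scale the ratio of the highest to the lowest library ran from 1.29 for Samhd1 to 6.42 for Nlrc5.

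**Figure D1:**
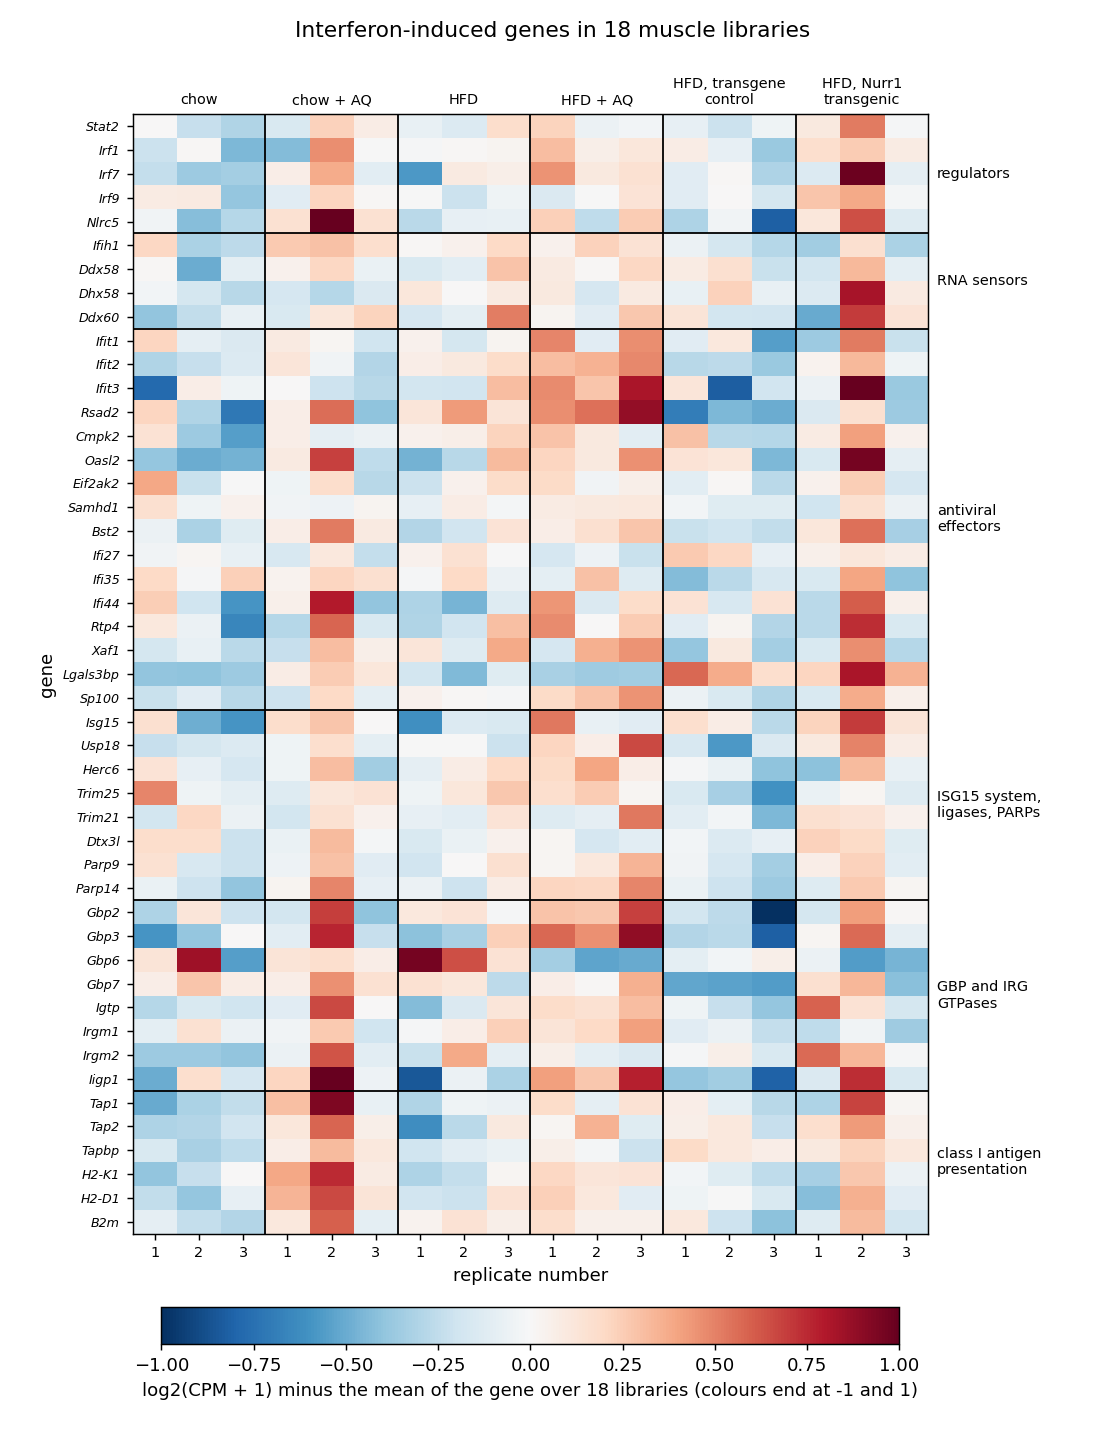
Log2(CPM + 1) of 47 interferon-induced genes (rows, by role) in 18 libraries (columns, by group and replicate number), as the difference from the mean of each gene over all libraries, with colours ending at -1 and 1. The columns of transgenic replicate 2 and of AQ on chow replicate 2 are red in nearly all rows, with 45 and 42 of 47 genes above their own mean, and HFD with AQ is mostly red in all 3 replicates.

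Among the regulators, which drive the transcription of the rest, Irf1 was the most abundant per kilobase. Irf1, an activator induced by interferon gamma, was at 9.83, 11.7 and 8.22 CPM on chow, at 8.31, 16.4 and 11.6 with AQ on chow, at 11.5, 11.7 and 11.8 on HFD and at 14.6, 12.1 and 12.7 with AQ on HFD. In the transgenic controls it was at 12.3, 10.9 and 8.74 CPM and in the transgenic libraries at 13.2, 14.03 and 12.4. The highest library was AQ on chow replicate 2, and the transgenic libraries lay just above all of their controls. Irf7, which amplifies the type I response, was at 3.57, 3.2 and 3.27 CPM on chow and 4.65, 5.996 and 4.03 with AQ, at 2.63, 4.73 and 4.61 on HFD and 6.37, 4.76 and 4.99 with AQ. The transgenic controls were at 3.98, 4.45 and 3.36 and the transgenic libraries at 3.92, 9.64 and 4.08. Under both diets the libraries with AQ lay above those without it, and transgenic replicate 2 stood alone above the other 17 libraries. Stat2, Irf9 and Nlrc5, the activator of class I genes, ranged over 7.96 to 14.8, 6.29 to 11.4 and 1.2 to 7.67 CPM.

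Of the RNA sensors, Ddx58 encodes RIG-I, which detects short viral RNA. Its values were 7.93, 5.29 and 7.25 CPM on chow, 8.1, 9.2 and 7.47 with AQ on chow, 6.98, 7.22 and 9.76 on HFD and 8.41, 7.91 and 9.24 with AQ on HFD. Transgenic controls were at 8.35, 8.89 and 6.57 and transgenic libraries at 6.8, 10.1 and 7.28 CPM. All group pairs overlapped. Ifih1, which encodes the sensor MDA5, ranged over 5.02 to 8.37 CPM, and Dhx58 and Ddx60 over 0.697 to 2.66 and 0.887 to 3.33 CPM.

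The antiviral effectors were followed through Ifit2, Ifit3, Rsad2, Samhd1 and Lgals3bp. Ifit2, which binds viral RNA and limits its translation, was at 4.6, 4.87 and 5.26 CPM on chow and 6.48, 5.72 and 4.61 with AQ, at 6.22, 6.39 and 6.82 on HFD and 7.52, 7.77 and 8.6 with AQ. Controls of the transgene were at 4.69, 4.76 and 4.33 and transgenic libraries at 6.06, 7.65 and 5.68. The groups stood apart in 3 steps, HFD above chow, HFD with AQ above HFD, and transgenic above control, and overlapped only for AQ on chow. Ifit3, a partner of the same family, was at 1.27, 3.06 and 2.76 CPM on chow, 2.89, 2.37 and 2.2 with AQ on chow, 2.42, 2.41 and 3.81 on HFD and 4.4, 3.71 and 5.82 with AQ on HFD. It was at 3.21, 1.19 and 2.39 in controls and 2.73, 7.05 and 2.004 in transgenic libraries, where replicate 2 was the highest of all 18.

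Rsad2 encodes viperin, which makes a chain-ending nucleotide. It was at 7.37, 4.87 and 3.4 CPM on chow, 6.55, 9.62 and 4.47 with AQ on chow, 6.85, 8.71 and 6.88 on HFD and 8.98, 9.59 and 12.3 with AQ on HFD. Controls were at 3.47, 4.29 and 4.11 and transgenic libraries at 5.54, 7.05 and 4.61, so that HFD with AQ lay above HFD and transgenic above control without overlap. Samhd1, which depletes the nucleotides that viruses need, was the steadiest gene of the set. On chow Samhd1 was at 37.4, 32.5 and 34.5 CPM and with AQ on chow at 32.7, 32.4 and 34.05. HFD libraries were at 31.6, 35.3 and 33.1 and those with AQ on HFD at 35.5, 35.9 and 36.1, the controls at 32.9, 30.6 and 30.7 and the transgenic libraries at 29.04, 37.6 and 32.1. Lgals3bp, a secreted glycoprotein that binds galectin-3, was at 15.7, 15.6 and 16.1 CPM on chow, 22.1, 25.2 and 22.7 with AQ on chow, 18.3, 15.2 and 19.2 on HFD and 16.5, 16.1 and 16.3 with AQ on HFD. The controls of the transgene lay at 31.7, 27.4 and 23.7 and the transgenic libraries at 24.5, 37.6 and 26.99. Both groups of the transgene experiment were therefore above all 6 libraries of HFD with and without AQ. The other effectors ranged from 0.449 to 2.79 CPM for Ifi44 to 21.8 to 31.3 CPM for Ifi27.

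In the ISG15 system, Isg15 itself was at 1.67, 0.696 and 0.578 CPM on chow, 1.69, 1.88 and 1.39 with AQ on chow, 0.553, 1.16 and 1.14 on HFD and 2.42, 1.26 and 1.2 with AQ on HFD. Controls were at 1.67, 1.51 and 0.971 and transgenic libraries at 1.77, 2.86 and 1.6 CPM. HFD with AQ lay above HFD in all 3 libraries against all 3, and the other pairs overlapped. Usp18, the protease that removes ISG15 and damps type I signalling, was at 1.98, 2.09 and 2.18 CPM on chow, 2.4, 2.93 and 2.27 with AQ, 2.49, 2.49 and 2.005 on HFD and 3.06, 2.66 and 4.53 with AQ on HFD. It was at 2.12, 1.35 and 2.17 in controls and 2.73, 3.92 and 2.67 in transgenic libraries. Both AQ groups and the transgenic group lay above their own controls without overlap. Trim25, the ubiquitin ligase that acts on RIG-I, was at 28.9, 19.7 and 18.9 CPM on chow, 18.5, 21.96 and 22.6 with AQ, 19.7, 22.1 and 24.6 on HFD, 22.9, 24.4 and 20.5 with AQ on HFD, 18.2, 15.9 and 13.0 in controls and 19.4, 20.6 and 18.5 in transgenic libraries. Chow replicate 1 was its highest library.

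The GTPases comprised guanylate-binding proteins (Gbp) and immunity-related GTPases (Irgm, Igtp, Iigp1). Members of both families coat and disrupt the vacuoles of microbes, though not all members do. Gbp3 was at 3.49, 4.17 and 5.78 CPM on chow and 5.29, 10.5 and 4.76 with AQ, at 4.08, 4.4 and 6.95 on HFD and 9.05, 8.26 and 11.5 with AQ. It was at 4.5, 4.6 and 2.84 in controls and 5.84, 8.98 and 5.34 in transgenic libraries. Gbp3 was higher without overlap with AQ on HFD and with the transgene, and overlapped on chow. Gbp6 ran the other way on HFD, at 11.2, 8.8 and 5.95 CPM without and 3.95, 3.36 and 3.42 with AQ. On chow it was at 5.87, 10.3 and 3.27 CPM without and 5.85, 6.07 and 5.57 with AQ, and at 4.88, 5.16 and 5.53 in controls and 5.02, 3.26 and 3.54 in transgenic libraries. Its highest libraries were HFD replicate 1 and chow replicate 2, and the chow libraries reached both above and below those with AQ on chow.

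Gbp7 was at 12.6, 12.5 and 12.2 CPM in the transgenic controls and 20.8, 23.6 and 13.6 in transgenic libraries. In the wild-type groups it was at 19.5, 22.7 and 19.5 on chow, 19.4, 25.8 and 20.6 with AQ on chow, 20.8, 20.2 and 15.3 on HFD and 19.4, 18.7 and 24.03 with AQ on HFD. The 3 transgenic controls were the lowest of all 18 libraries for Gbp7. Irgm2, which keeps other GTPases off the membranes of the cell itself, was at 16.97, 17.1 and 16.6 CPM on chow, 21.2, 34.8 and 20.5 with AQ on chow, 18.9, 29.1 and 20.7 on HFD, 23.1, 20.6 and 19.97 with AQ on HFD, 22.03, 23.1 and 19.9 in controls and 33.2, 28.2 and 21.98 in transgenic libraries. The chow libraries were below those with AQ and below those on HFD without overlap. Iigp1 was at 6.74, 11.2 and 8.67 CPM on chow and 11.6, 23.99 and 9.52 with AQ, 5.05, 9.46 and 7.75 on HFD and 13.4, 12.1 and 17.7 with AQ, and 7.32, 7.54 and 5.23 in controls and 8.87, 17.2 and 8.82 in transgenic libraries. Reads of the similar Gbp genes may be shared among them, and Igtp and Irgm2 overlap on the same strand in the annotation, so their values carry that uncertainty.

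Over the whole set, 2 libraries stood above all others. The median deviation of the 47 genes from their own means, on the log2(CPM + 1) scale, was 0.37 in transgenic replicate 2 and 0.31 in AQ on chow replicate 2. The other libraries of those groups lay at -0.06 and -0.09 for the transgene and 0.03 and -0.06 for AQ on chow. The 3 libraries with AQ on HFD were at 0.19, 0.09 and 0.15 and those on HFD alone at -0.09, -0.06 and 0.09. Chow libraries were at -0.06, -0.20 and -0.21 and the transgenic controls at -0.06, -0.12 and -0.28. The HFD libraries with AQ lay above those without it, though the nearest of them lay side by side at 0.09. Chow libraries with AQ lay above those without it as narrowly, at -0.06 and -0.06, and transgenic replicates 1 and 3 lay within the range of the controls.

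**Figure D2:**
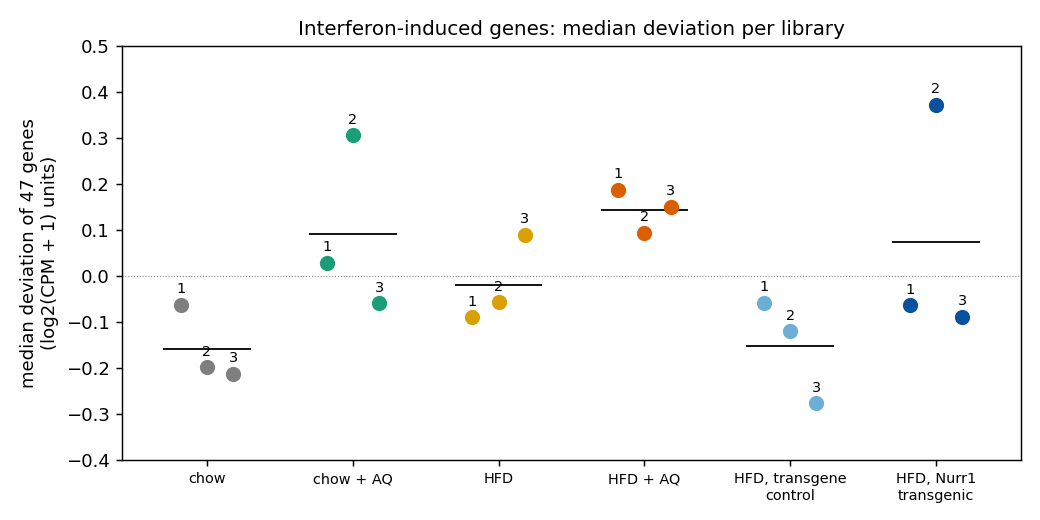
Median over 47 interferon-induced genes of the log2(CPM + 1) deviation from the mean of each gene over 18 libraries, with a point per library, its replicate number, and a line at the group mean. Transgenic replicate 2 (0.37) and AQ on chow replicate 2 (0.31) lie above the other 16 libraries, while the HFD with AQ libraries lie together between 0.09 and 0.19.

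These 2 libraries differed in which genes peaked. Transgenic replicate 2 held the highest value of all 18 libraries for 17 of the 47 genes, against 7.99% of all genes tested. Of the 17, 10 were antiviral effectors, 3 were regulators, 3 were RNA sensors and 1 was Isg15, with none among the GTPases or class I genes. AQ on chow replicate 2 held the highest value for 16 genes, against 4.35% of all genes tested. These included all 6 class I genes and 5 of 8 GTPases, with 2 regulators (Irf1 and Nlrc5), Ifih1, Ifi44 and Dtx3l. Only 1 library can hold the highest value of a gene, so these counts do not show which genes were raised. In transgenic replicate 2 the median deviation was 0.33 for the GTPases and 0.33 for class I. In AQ on chow replicate 2 these medians were 0.64 and 0.63. HFD with AQ replicate 3 was the highest for 9 genes, against 9.12% of all genes, among them Ifit2, Rsad2, Usp18, Gbp3 and Parp14. The lowest values gathered in transgenic control replicate 3 (11 genes, against 4.57% of all genes) and chow replicate 3 (10 genes, against 6.9%).

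Markers of cells that present antigen on class II had their highest median deviations in these same libraries, 0.64 in AQ on chow replicate 2 and 0.55 in transgenic replicate 2, with the next at 0.32 in transgenic control replicate 1. General leukocyte markers were high in both without the same order. Their median deviation (13 of 18 listed markers had a row, none at 0) was 0.46 in transgenic replicate 2 and 0.31 in AQ on chow replicate 2. It was highest, at 0.54, in transgenic control replicate 1, where the interferon-induced genes lay at -0.06. In transgenic replicate 1 it was 0.33, and there the interferon-induced genes lay at -0.06 as well. In the HFD with AQ libraries it was -0.33, -0.22 and -0.24, the side of the mean opposite to the interferon-induced genes. In whole muscle, fewer cells of a type and less RNA per cell cannot be told apart.

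AQ on chow was compared with chow alone to see what the compound did without HFD, and the class I presentation genes had the highest median fold change of the 6 roles. Tapbp encodes tapasin, which holds empty class I molecules at the peptide transporter. It was at 34.96, 30.8 and 32.4 CPM on chow and 40.8, 48.7 and 42.03 with AQ, and the groups did not overlap (32.7 ± 2.09 against 43.9 ± 4.27 CPM, mean and SD, n = 3). Tapbp rose by 0.41 ± 0.08 on the log2 scale (SE; limma adjusted p = 0.0293), the one pass among the 47 genes, where 1.11% of all genes tested passed. On HFD it was at 33.9, 36.2 and 37.1 CPM without and 40.6, 38.4 and 33.4 with AQ, in the transgenic controls at 44.5, 42.1 and 40.9 and in transgenic libraries at 41.8, 45.5 and 41.9. The transgenic controls, which received no AQ, thus lay within the range of the chow libraries with AQ.

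Tapbp passed with edgeR (adjusted p = 0.0301) and DESeq2 (adjusted p = 0.00256) and without chow replicate 1 (limma adjusted p = 0.0314). It did not pass without chow replicate 2 (0.12), chow replicate 3 (0.0559) or AQ replicates 1 (0.0651), 2 (0.124) or 3 (0.0929), each a limma adjusted p. It also missed with all columns rescaled to the same sum (0.122), without a variance trend (0.0567), with only these 2 groups in the fit (0.136) and with each library's GC trend removed (0.101). In the annotation Tapbp overlaps Zbtb22 on the same strand, and their reads may be shared.

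The other 5 class I genes lay on the same side without passing. Tap1, a chain of the peptide transporter, was at 3.17, 3.76 and 3.98 CPM on chow and 6.27, 10.3 and 4.61 with AQ, with no overlap (0.74 ± 0.23, limma adjusted p = 0.126). Elsewhere Tap1 was at 3.8, 4.73 and 4.68 CPM on HFD, 5.74, 4.55 and 5.55 with AQ on HFD, 5.2, 4.53 and 3.88 in the transgenic controls and 3.77, 8.45 and 5.01 in transgenic libraries. AQ on chow replicate 2 was its highest library and transgenic replicate 2 the next. H2-K1, a class I heavy chain, was at 54.1, 60.7 and 71.7 CPM on chow and 93.7, 121 and 75.6 with AQ (0.61 ± 0.15, adjusted p = 0.0646). Its HFD libraries were at 57.6, 60.3 and 72.6 CPM, those with AQ on HFD at 82.5, 77.8 and 78.8, the transgenic controls at 70.2, 65.7 and 59.6 and the transgenic libraries at 56.5, 86.2 and 68.5. H2-K1 was thus above its untreated group without overlap under both diets.

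B2m, the light chain that all class I molecules share, was at 108, 97.3 and 93.5 CPM on chow and 123, 174 and 107 with AQ, an overlap between chow replicate 1 and AQ replicate 3. It was at 118, 127 and 119.5 on HFD, 129.5, 119 and 119 with AQ on HFD, 124, 99.2 and 86.3 in controls and 105, 143 and 101 in transgenic libraries. The difference on chow was 0.41 ± 0.15 (limma adjusted p = 0.218). Tap2, the partner of Tap1, differed by 0.52 ± 0.17 (adjusted p = 0.164) and the heavy chain gene H2-D1 by 0.61 ± 0.17 (adjusted p = 0.0865). The sequences of H2-K1 and H2-D1 are similar, and reads shared between them could be split in unknown ways.

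**Figure D3:**
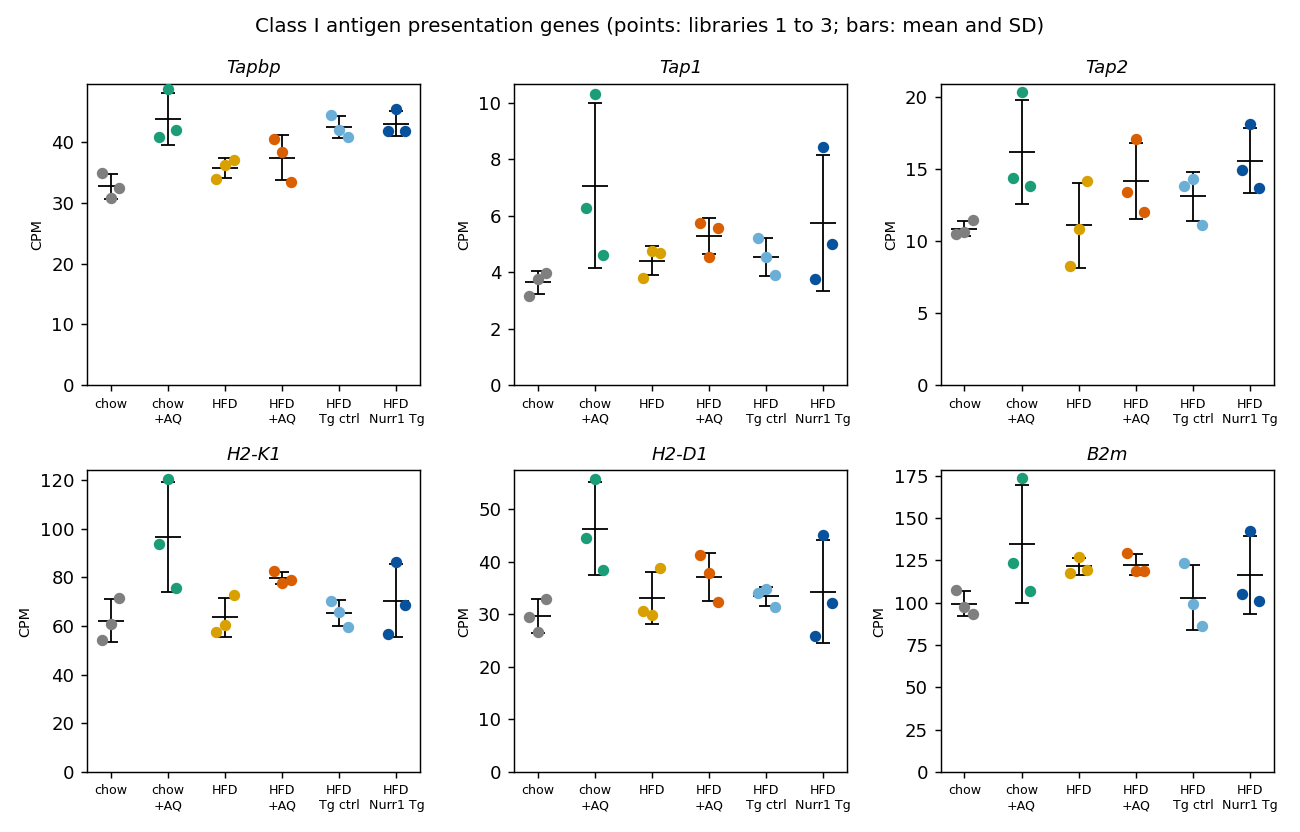
CPM of the 6 class I presentation genes by group on linear axes from 0, with dots for single libraries and whiskers showing mean and SD (n = 3). With AQ on chow 5 of the 6 genes lie above chow in all libraries, and AQ replicate 2 is the highest point of each panel.

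Across the whole set, 39 of 47 genes had a log2 fold change above 0 with AQ on chow, against 48.3% of all genes, with a median of 0.23 against -0.01 for all genes tested. At an unadjusted p under 0.05, 13 of the 47 were higher (8.74% of all genes) and none was lower (6.77%). Libraries did not overlap for 13 genes, all higher with AQ, against 10.9% of all genes, and for 0 lower, against 8.97%. The class I genes had a median of 0.56, the GTPases 0.28, the RNA sensors 0.28, the regulators 0.23, the effectors 0.19 and the ISG15 and ligase genes 0.07. Beyond class I, the nearest to the threshold was Lgals3bp (0.53 ± 0.13, limma adjusted p = 0.0552), followed by Irgm2 (0.53 ± 0.18, adjusted p = 0.164) and Nlrc5 (0.74 ± 0.26, adjusted p = 0.185). DESeq2 called 5 genes, Lgals3bp, Tapbp, H2-K1, Tap1 and H2-D1, and edgeR called 1. Without AQ replicate 1 the median was 0.34. Without AQ replicate 2 it was 0.11, with 32 genes above 0 and 5 at an unadjusted p under 0.05, and the class I fold changes lay between 0.21 for B2m and 0.47 for H2-D1.

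Markers of immune cells and endothelium moved with these genes on chow. All 13 leukocyte markers had a log2 fold change above 0 (median 0.43), and their sum was 93.2 to 97.2 CPM on chow and 112 to 162 CPM with AQ. All 7 markers of cells that present on class II were above 0 (median 0.65), with sums of 75.4 to 82.9 and 124 to 175 CPM, and H2-Aa (0.72, limma adjusted p = 0.043) and H2-Eb1 (0.80, adjusted p = 0.0422), which encode class II chains, rose. In endothelium Cldn5 (0.93, adjusted p = 0.0451) and Vwf (0.45, adjusted p = 0.0251) rose, with 11 of 12 markers above 0. Medians of the remaining lists were 0.06 for matrix, 0.07 for adipocytes, 0.01 for smooth muscle, 0.10 for Schwann cells and -0.001 for muscle fibres. The erythroid gene Alas2 was higher without overlap (0.79, limma adjusted p = 0.106). No marker of these lists was at 0 in a library, though the T cell markers Cd3e and Cd3g, the B cell marker Cd79a and the NK cell marker Nkg7 had no row. The part of these cells in the class I values was not tested.

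AQ on HFD was compared with HFD alone, and here the fold changes of the GTPases reached farthest on both sides of 0, while no gene of the set passed. Gbp6 had the largest difference, -1.04 ± 0.25, with all 3 libraries with AQ below all 3 without (limma adjusted p = 0.0991). Iigp1 (0.89 ± 0.30, adjusted p = 0.226) and Gbp3 (0.80 ± 0.26, adjusted p = 0.201) had the largest differences above 0. Gbp6 passed with DESeq2 (-1.27, adjusted p = 0.00975) and without HFD replicate 3 (-1.26, limma adjusted p = 0.0237). With the remaining single libraries left out, it lay between -0.85 and -1.10 and missed the threshold.

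**Figure D4:**
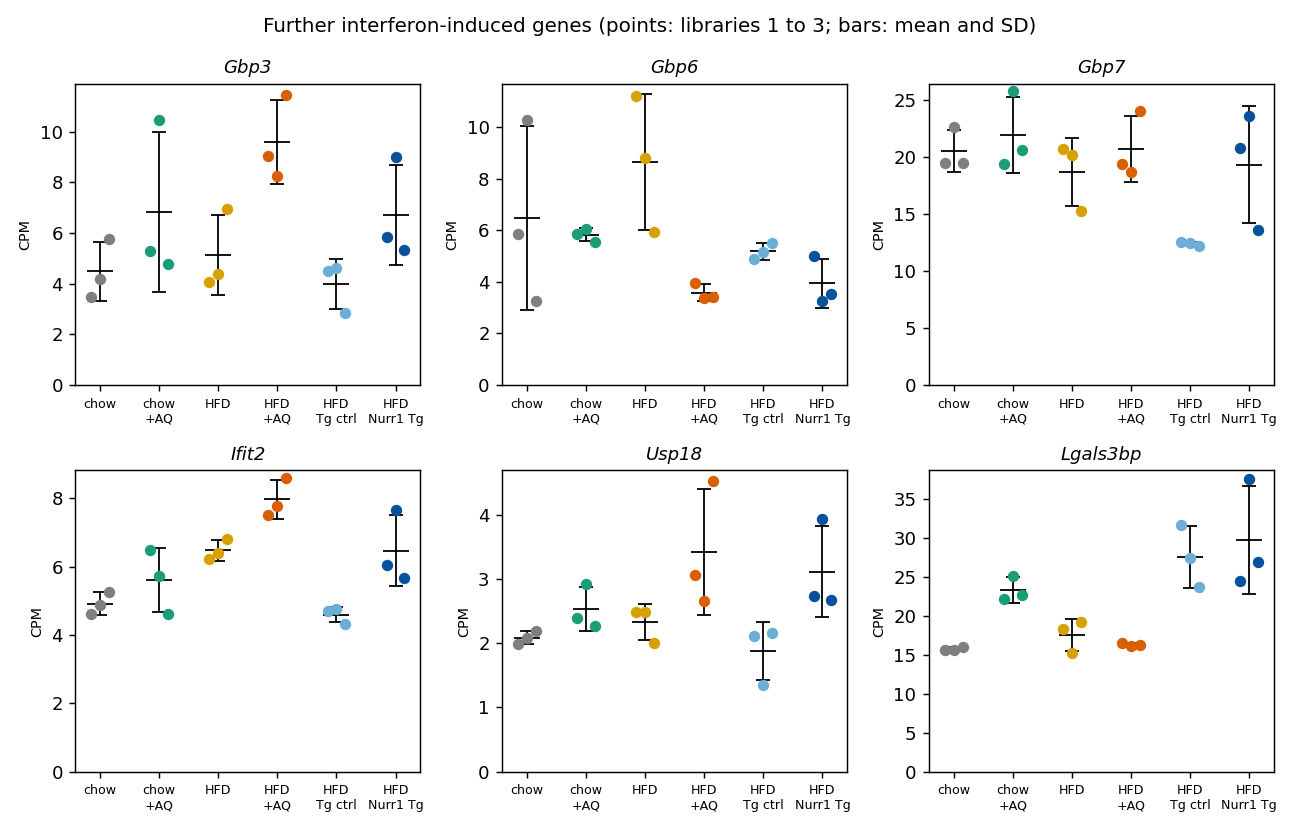
CPM of Gbp3, Gbp6, Gbp7, Ifit2, Usp18 and Lgals3bp by group on linear axes from 0, with dots for single libraries and whiskers showing mean and SD (n = 3). With AQ on HFD Gbp3, Ifit2 and Usp18 lie above HFD and Gbp6 below it without overlap, and the transgenic controls are the lowest group for Gbp7 and the highest wild-type group for Lgals3bp.

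Under limma 0 of 47 genes passed for AQ on HFD, where 0.0479% of all genes did, edgeR called 0 and DESeq2 called Gbp6. At an unadjusted p under 0.05, 7 genes were higher (5.15% of all genes): Gbp3, Iigp1, Parp14, Usp18, Sp100, Ifit2 and H2-K1. The 2 lower ones (6.62% of all genes) were Gbp6 and Ifi27. The 7 became 3 without HFD replicate 1, HFD replicate 2 or AQ replicate 3 and 12 with only the groups compared in the fit. The 2 became 1 without any of those 3 libraries or AQ replicate 1. Parp14, an ADP-ribosyl transferase, had a difference of 0.37 ± 0.15 (limma adjusted p = 0.331), and Usp18 of 0.39 ± 0.17 (adjusted p = 0.365). Libraries did not overlap for 14 genes higher with AQ, against 7.39% of all genes, and for 2 lower, against 8.91%. In all, 38 of 47 fold changes were above 0 (50.5% of all genes), with a median of 0.16 against 0.00 for all genes tested. By role the medians were 0.27 for the effectors, 0.24 for the GTPases, 0.19 for class I, 0.16 for the ISG15 and ligase genes, 0.15 for the regulators and 0.02 for the RNA sensors.

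Markers of other cells lay on both sides of 0 in this comparison. Endothelial markers lay on the same side as the set, 9 of 12 above 0 (median 0.11), with sums of 651 to 738 CPM on HFD and 708.5 to 777 CPM with AQ. Cdh5, which encodes VE-cadherin (0.27, limma adjusted p = 0.249), and Esam, an adhesion molecule of endothelial junctions (0.25, adjusted p = 0.414), did not overlap between the groups. Of 7 class II markers 5 were below 0 (median -0.07), with sums of 77.3 to 121 and 83.9 to 101 CPM. Of 13 leukocyte markers 12 were below 0 (median -0.28), with sums of 107.5 to 134 CPM on HFD and 84.3 to 97.1 CPM with AQ. Matrix and adipocyte markers had medians of -0.70 and -0.60, and none of these lists held a called gene. Their part in the values of the set was not tested.

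Whether AQ differed in its effect between the diets was tested as the difference of the fold changes on HFD and on chow. Under limma 0 of 47 genes passed, against 0.711% of all genes, and edgeR and DESeq2 also called 0. The 4 genes at an unadjusted p under 0.05 were all lower on HFD (8.44% of all genes, and 0 higher against 5.69%). They were Lgals3bp (-0.63 ± 0.18, limma adjusted p = 0.123), Tapbp (-0.34 ± 0.12, adjusted p = 0.194), Gbp6 (-1.02 ± 0.36, adjusted p = 0.2) and Irgm2 (-0.61 ± 0.25, adjusted p = 0.287). Gbp6 passed without chow replicate 2, its high chow library (-1.37, adjusted p = 0.0435). For the class I genes all 6 differences were below 0, from -0.53 for Tap1 to -0.17 for Tap2. Markers of other cells lay on the same side: all 13 leukocyte markers were below 0 (median -0.72, 9 at an unadjusted p under 0.05), as were 6 of 7 class II markers (median -0.72, 5 at that p), and none of either list passed. Of 9 matrix markers 7 were below 0 (median -0.74), and Fbn1 (-1.68, limma adjusted p = 0.0232) and Col5a1 (-1.21, adjusted p = 0.0349) passed. Of 9 adipocyte markers 8 were below 0 (median -1.33), and none passed. Their part in the class I values was not tested. For the whole set the median was -0.03, with 19 genes above 0 (51.3% of all genes), and its sign depended on single libraries. It was above 0 without chow replicate 3, AQ on chow replicate 2, HFD replicate 3 or AQ on HFD replicate 2, reaching 0.07 with 30 genes above 0 without AQ on chow replicate 2. With columns rescaled to the same sum it was 0.01, with 27 genes above 0 and 2 lower at an unadjusted p under 0.05. Without AQ on chow replicate 3 it was -0.12, with 12 genes above 0 and 8 lower at that p.

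Nurr1 transgenic muscle was compared with its own controls on HFD, and the GTPases and regulators had the highest medians of the 6 roles. Gbp7 had the smallest p, with a difference of 0.57 ± 0.16 and no overlap (limma adjusted p = 0.158). Ifit2 followed at 0.41 ± 0.12 (adjusted p = 0.175) and Usp18 at 0.51 ± 0.17 (adjusted p = 0.25), both without overlap. Gbp7 passed with DESeq2 (0.64, adjusted p = 0.0438) and without transgenic replicate 3 (0.79, limma adjusted p = 0.0141).

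In limma 0 of 47 genes passed for the transgene, against 0.599% of all genes, edgeR called 0 and DESeq2 called Gbp7. At an unadjusted p under 0.05, 11 were higher (4.36% of all genes) and 0 lower (4.59%). The 11 were Stat2, Irf9 and Nlrc5 of the regulators, Ifit2, Usp18, Trim25, and the GTPase genes Gbp2, Gbp3, Gbp7, Igtp and Iigp1. For Ifit2, Trim25, Gbp2 and Gbp7, but not the rest of the 11, all controls lay below all untreated HFD libraries of the AQ experiment. Means in transgenic and untreated HFD libraries were 6.46 and 6.48 CPM for Ifit2 and 19.5 and 22.1 for Trim25. They were 10.5 and 10.2 CPM for Gbp2 and 19.4 and 18.7 for Gbp7. Libraries did not overlap for 11 genes, all higher in transgenic muscle, against 6.99% of all genes, and for 0 lower, against 7.35%. Fold changes were above 0 for 44 of 47 genes (49.7% of all genes), and the 3 below 0 were Gbp6, Irgm1 and Ifi27. The median was 0.25 against 0.00 for all genes tested, and by role it was 0.49 for the GTPases, 0.32 for the regulators, 0.29 for the ISG15 and ligase genes, 0.23 for the effectors, 0.13 for class I and 0.10 for the RNA sensors. Without transgenic replicate 2 the median was 0.09, with 28 genes above 0 and 3 higher at an unadjusted p under 0.05. The 11 became 4 without control replicate 3 and 18 without transgenic replicate 3. Markers of immune cells lay on the same side as the set. Of 7 class II markers 6 were above 0 (median 0.34), with sums of 97.9 to 153 CPM in controls and 121 to 164 CPM in transgenic libraries. H2-DMa, which helps load class II molecules, did not overlap between the groups (0.61, limma adjusted p = 0.103). Of 13 leukocyte markers 12 were above 0 (median 0.16), with sums of 106 to 184 CPM in controls and 134 to 160 CPM in transgenic libraries. None of either list passed, and their part in these values was not tested.

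HFD was compared with chow, both without AQ. Ifit2 had the smallest p, with a log2 fold change of 0.34 ± 0.12 (limma adjusted p = 0.389), followed by Irgm2 at 0.39 ± 0.18 (adjusted p = 0.498) and Rsad2 at 0.49 ± 0.23 (adjusted p = 0.514). Of 47 genes 0 passed, against 0.0479% of all genes, and edgeR and DESeq2 called 0. These 3 genes were also the only ones at an unadjusted p under 0.05, all higher (5.01% of all genes), with 0 lower (4.52%). The 3 became 1 without chow replicate 3 or HFD replicate 2, and with rescaled columns or no variance trend. Groups did not overlap for 5 genes higher on HFD, against 6.32% of all genes, and for 0 lower, against 6.1%. Fold changes were above 0 for 36 of 47, against 49.2%. The median was 0.14 against 0.00 for all genes, and without HFD replicate 3 it was 0.07, with 28 genes above 0. All 13 leukocyte markers were above 0 as well (median 0.30, sums of 93.2 to 97.2 CPM on chow and 107.5 to 134 CPM on HFD), as were 5 of 7 class II markers (median 0.26), 11 of 12 endothelial markers (0.21), all 9 matrix markers (0.28) and 8 of 9 adipocyte markers (1.03). Their part was not tested.

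The comparison of HFD with chow shares its chow libraries with AQ on chow and its HFD libraries with AQ on HFD, so their values are set side by side only. Ifit2 had log2 fold changes of 0.34 for HFD, 0.15 for AQ on chow and 0.26 for AQ on HFD. For Gbp6 the same values were 0.44, -0.02 and -1.04, and for Irgm2 0.39, 0.53 and -0.08.

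**Figure D5:**
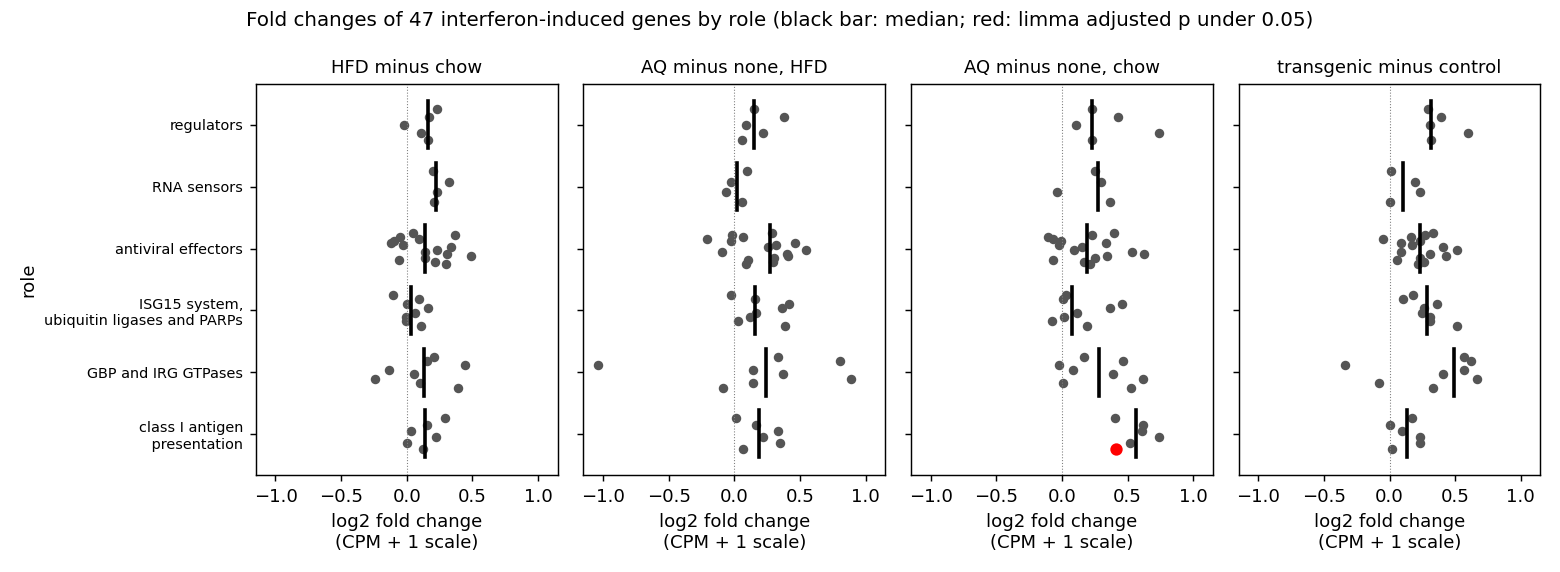
Log2 fold changes (CPM + 1 scale) of 47 interferon-induced genes in 4 comparisons, a point per gene arranged by role, with a black bar at the median of the role and red for the one gene that passed. The class I genes lie farthest right with AQ on chow (median 0.56), the GTPases with the transgene (median 0.49), and Gbp6 lies at -1.04 with AQ on HFD.

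Fold changes were also set out by whether the promoter held the ISRE letters, as a description. In the transgenic comparison the median log2 fold change was 0.32 for the 18 genes with the letters (17 above 0) and 0.23 for the 19 without (19 above 0). With AQ on chow the medians were 0.28 and 0.23, with AQ on HFD 0.14 and 0.15, and for HFD 0.16 and 0.14. Of the promoters printed above, that of Tapbp held no match, and Tapbp had the smallest p of the set with AQ on chow. B2m, with 1 match, had a fold change of 0.41 there and did not pass.

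Of 73 further genes of the pathway with a row, limma called 0 in each of the 5 comparisons. At an unadjusted p under 0.05 in either direction limma had 2 for HFD (2.74%, against 9.53% of all genes), 7 for AQ on HFD (9.59% against 11.8%), 11 for AQ on chow (15.1% against 15.5%), 6 for the difference between diets (8.22% against 14.1%) and 2 for the transgene (2.74% against 8.95%). With both directions together, each limma share was below that of all genes. For AQ on chow, however, all 11 were higher and 0 lower, where 8.74% of all genes were higher and 6.77% lower. The shares of the 73 genes for AQ on chow were 17.8% with edgeR and 16.4% with DESeq2. The shares of all genes at that p were not computed for edgeR and DESeq2, so these have no background beside them. edgeR called 0 in each. DESeq2 called Parp10 for AQ on HFD (143 over all genes) and H2-Q4 for AQ on chow (280 over all genes). None of 8 interferon genes listed had a row, and 17 of 18 receptor and JAK-STAT genes did, among them Ifnar1 (14.6 to 22.0 CPM) and Ifngr1 (29.2 to 49.9 CPM). Their medians were 0.02 for HFD, 0.03 for AQ on HFD, -0.01 for AQ on chow and 0.09 for the transgene. Of these genes 2 were higher at an unadjusted p under 0.05 for HFD and 2 for AQ on chow, 0 for the other 2 comparisons, and 0 were lower in these 4. Of the sensing genes upstream of interferon, 12 of 13 had a row, with medians of 0.14 for HFD, -0.17 for AQ on HFD, 0.07 for AQ on chow, -0.21 for the difference between diets and -0.01 for the transgene.

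Among 31 further interferon-induced genes with a row, of 40 listed, 29 had fold changes above 0 with the transgene and 24 with each AQ comparison, with medians of 0.15, 0.16 on chow and 0.04 on HFD. The smallest p values with AQ on HFD belonged to Parp10 (0.54, limma adjusted p = 0.104), Uba7 (0.61, adjusted p = 0.137), the activating enzyme of ISG15, and Gbp5 (1.10, adjusted p = 0.153). With the transgene it was Gbp4 (0.87, adjusted p = 0.333). Of 13 further class I processing genes 9 were above 0 with AQ on chow (median 0.09, against 0.56 for the 6 class I genes of the set). The 3 nearest the threshold were the class I gene H2-Q4 (0.79, limma adjusted p = 0.119), the immunoproteasome gene Psmb8 (0.56, adjusted p = 0.203) and H2-T23 (0.35, adjusted p = 0.230). Plasmacytoid dendritic cells, the main makers of type I interferon, could be followed by Siglech alone, at 0.396 to 1.54 CPM, since 3 of the 6 listed markers had no row, Cox6a2 is also a muscle gene and Tcf4 is expressed in many cell types.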

How the data were processed

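The authors deposited a table of CPM by gene symbol, 1 column per library. Its columns sum to between 929993 and 1071538, so the deposited values are a scaled signal. TopHat2 2.0.12, edgeR, GRCm38 and mm10 are named in the submitters' processing notes; the sources used here do not give the counting tool, annotation, use of strand or gene filter. Per the labels' protocols, extraction used TRIzol, and reads were single-end with 50 bases. Divided by a factor per library, every value was a whole read count (100% within 1e-06 reads), and no libraries of a group agreed within sampling noise (chi-square per degree of freedom at least 4.22).

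From these values limma 3.58.1 in R 4.3.3 was fitted to log2(CPM + 1), the 6 groups in 1 fit, two-sided, with a variance trend. The 12524 genes that reached 1 CPM in 3 or more libraries were tested, with Benjamini-Hochberg adjustment over all of them and a threshold of 0.05. The log scale understates changes of low genes. Alternatives were other pseudocounts, filters, scalings and variance models, a replicate block, edgeR 4.0.16 and DESeq2 1.42.0 on the recovered reads, leaving out each library, and, chosen after seeing the data, a correction for the GC trend of each library (loess, span 0.3). Scripts were tested on simulated data.

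The members, roles and lists were chosen with earlier results of these data known. Values in every library are given for members that passed, the 3 smallest p of each comparison, the most abundant of each role, and Isg15, Irf7, Ifit3 and Tap1. Other members named have ranges or fold changes. Positions and lengths come from GENCODE release 21 for mouse (GRCm38), promoters from RefSeq (GRCm38.p6). Since the use of strand is unstated, reads from genes that overlap on opposite strands cannot be told apart.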

Additional observations from a re-analysis of the deposited data

How the results depend on the processing

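Main calls over all genes were 6 for HFD, 6 for AQ on HFD, 139 for AQ on chow, 89 for the difference between diets and 75 for the transgene. Rescaling all columns to the same sum gave 3 for HFD, 43 for AQ on chow and 32 for the difference between diets. Without a variance trend these were 2, 52 and 31. With only the groups compared in the fit, HFD had 2, AQ on HFD 1 and AQ on chow 12. Removing the GC trend, chosen after seeing the data, left 19 for AQ on chow and 9 for the difference between diets. DESeq2 called 47, 143, 280, 229 and 171 in the order above. Of the interferon-induced genes, DESeq2 called 1 for AQ on HFD (Gbp6), 5 for AQ on chow and 1 for the transgene (Gbp7). For AQ on chow the filter of at least 5 CPM gave 2 (Lgals3bp and Tapbp), against 159 over all genes. Rescaling, no variance trend, only the groups compared and GC removal gave 0 of the interferon-induced genes each. Leaving out 1 library at a time gave 0 to 40 genes for HFD, 0 to 224 for AQ on HFD, 13 to 113 for AQ on chow, 3 to 103 for the difference between diets and 43 to 72 for the transgene. Members called then numbered 0 to 0 for HFD and 0 to 1 for each other comparison. The causes were not tested.

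With the replicate number as a replicate block, 12 genes passed for HFD and 49 for AQ on HFD with 0 members in either, and for AQ on chow Tapbp still passed (limma adjusted p = 0.0354). The labels do not say that a number pairs libraries, and same-numbered libraries had correlations of their deviations from -0.21 to 0.31. Each library correlated best with its own number in 2 of 6 cases for HFD and both AQ comparisons and in 3 of 6 for the transgene. Replacing the median over genes by the mean moved the value of HFD with AQ replicate 3 from 0.15 to 0.21. Depth limits the low genes, such as Isg15 at 0.553 to 2.86 CPM against a floor of 0.191 to 0.277 CPM.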

Other observations

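The 2 groups of wild-type mice on HFD without AQ, the untreated group of the AQ experiment and the controls of the transgene, were not compared by the design and are given as values chosen after they were seen. For 10 of the 47 genes all 3 transgenic controls lay below all 3 untreated HFD libraries (21.3%, against 11.3% of all genes tested). These were Ifih1, Ifit2, Rsad2, Ifi35, Sp100, Trim25, Gbp2, Gbp6, Gbp7 and Irgm1. For Lgals3bp and Tapbp all 3 controls lay above (4.26% of the 47 genes, against 11.8% of all genes). Lgals3bp averaged 27.6 ± 3.99 CPM in the controls and 17.6 ± 2.10 CPM in the untreated HFD group (SD, n = 3), and Gbp7 averaged 12.4 ± 0.17 and 18.7 ± 2.99 CPM. The labels give both groups as wild type on HFD, and what else differed between them was not tested.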
